A study of Mus musculus with 12 samples.

Results

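The Sox family members examined here were the 9 transcription factor genes Sox4, Sox11, Sox12, Sox5, Sox6, Sox13, Sox7, Sox17 and Sox18. They were read in mouse progenitor B cells of embryonic fetal liver on 12 Illumina bead arrays. Every probe whose platform gene symbol, current or older, was one of these genes was taken, each probe apart, which gave 28 of the 45281 probes on the array and 9 of the 19057 genes they name. Sox4 had 2 probes, Sox11 and Sox12 had 4 each, Sox5 had 6, Sox6 had 5, Sox7 had 3, Sox17 had 2, and Sox13 and Sox18 had 1 each. No probe came in through an older symbol alone.

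The arrays formed 4 groups of 3, all from C57BL/6 cells that carried the floxed allele Sox4fl/fl. In the loss experiment, Sox4fl/fl SE-Cre progenitor B cells were set against Sox4fl/fl cells without SE-Cre. In the gain experiment, both groups were Sox4fl/fl SE-Cre cells that the leukaemic kinase p190 Bcr-Abl had immortalized. Those labelled HA-Sox4 were set against those labelled HA. The groups are called SE-Cre, Sox4fl/fl, HA-Sox4 and HA below, and both gain groups therefore also carried SE-Cre and Bcr-Abl. The labels do not spell out SE-Cre, do not say what drives it, and leave it unstated if replicate samples are different animals or cultures, or whether the HA and HA-Sox4 cells came from 1 immortalized culture. SE-Cre was in no group that kept Sox4 intact, so effects of SE-Cre and of Sox4 loss cannot be told apart, and the spread behind each p-value is that of these samples, which may be technical.

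Sox proteins bind DNA through an HMG box, a domain that bends the helix at short A/T-rich words, and they are sorted into groups by the likeness of that box. The SoxC genes Sox4, Sox11 and Sox12 encode activators with a shared C-terminal activation domain, and Sox4 is needed for B cell development at the pro-B stage. The SoxD genes Sox5, Sox6 and Sox13 encode coiled-coil proteins with no activation domain of their own, of which Sox6 acts in erythroid cells and Sox13 in gamma-delta T cells. The SoxF genes Sox7, Sox17 and Sox18 encode factors of vascular and early blood development.

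The start regions of the 3 SoxC genes are shown for reference. Sox4, the deleted gene, and its paralog Sox12 both fell with SE-Cre, while Sox11 was at the detection limit. A link between these sequences and the levels was not tested. The sequences are RefSeq windows on build GRCm38.p6, each the 250 bases before the annotated start on the minus strand, written 5′ to 3′. Capitals mark the word CCAAT or its complement ATTGG. The windows lie at chr13:28953700-28953949 for Sox4, chr2:152398047-152398296 for Sox12 and chr12:27342719-27342968 for Sox11.
Sox4: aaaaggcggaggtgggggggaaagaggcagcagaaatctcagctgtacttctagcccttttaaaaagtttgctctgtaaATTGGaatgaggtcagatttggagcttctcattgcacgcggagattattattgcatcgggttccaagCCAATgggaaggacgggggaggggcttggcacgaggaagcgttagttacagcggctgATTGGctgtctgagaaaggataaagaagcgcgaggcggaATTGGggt
Sox12: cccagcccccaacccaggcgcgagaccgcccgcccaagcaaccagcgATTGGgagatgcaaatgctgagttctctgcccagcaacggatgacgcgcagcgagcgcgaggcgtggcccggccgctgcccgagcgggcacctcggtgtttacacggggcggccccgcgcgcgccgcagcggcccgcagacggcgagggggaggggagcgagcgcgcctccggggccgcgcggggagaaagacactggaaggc
Sox11: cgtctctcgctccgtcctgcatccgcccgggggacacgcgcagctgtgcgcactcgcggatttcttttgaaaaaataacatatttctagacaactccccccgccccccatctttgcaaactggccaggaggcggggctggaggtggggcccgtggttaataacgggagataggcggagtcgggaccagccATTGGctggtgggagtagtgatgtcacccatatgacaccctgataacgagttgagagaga
The CCAAT word, searched on both strands, lies 4 times in the Sox4 window and 1 time in each of the other two, and 33.8% of all 32851 RefSeq windows of this length hold it. The words AACAAAG and AACAAT, which contain the core that Sox proteins bind, were searched on both strands too and are in none of these 3 windows. They occur in 5.0% and 9.4% of all windows. The same search found AACAAAG or AACAAT in some of the several Sox6 start windows, which are not shown. G and C make up 50.8% of the Sox4 window, 74.4% of the Sox12 window and 58.0% of the Sox11 window.

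Each probe had 2 measures on each array. One was the log2 intensity after background correction and quantile normalization within an experiment, called the log2 level. The other was the deposited detection p-value, by usage the share of negative control probes on the array that are at least as bright, and a probe was called detected where it was under 0.05. By that usage 5% of the negative controls pass on each array, so a single detected array is weak evidence of RNA. On this scale the array medians were 4.38 on loss and 4.81 on gain, and the dimmest detected probe of an array lay between 4.55 and 4.60 on loss and between 5.08 and 5.25 on gain. Before normalization the array medians ranged from 83.4 to 90.2 on loss and from 114.5 to 139.2 on gain, with 36.1% to 40.0% of all probes detected. Levels of different probes are not comparable with each other.

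Most Sox probes were at background. Of the 28 probes, 15 were detected on none of the 12 arrays, and the other 13 belonged to 7 genes. Sox17 and Sox18 were not detected with any probe on any array. Of the 28, 5 probes on loss and 3 on gain were detected on at least 3 of the 6 arrays, the condition for a test. The 5 stood for Sox4, Sox11, Sox12, Sox6 and Sox13, and the 3 for Sox4, Sox12 and Sox7. A probe can meet that condition through the group where it is bright alone, so the counts below describe the kept probes and nothing is read from their number.

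**Figure D1:**
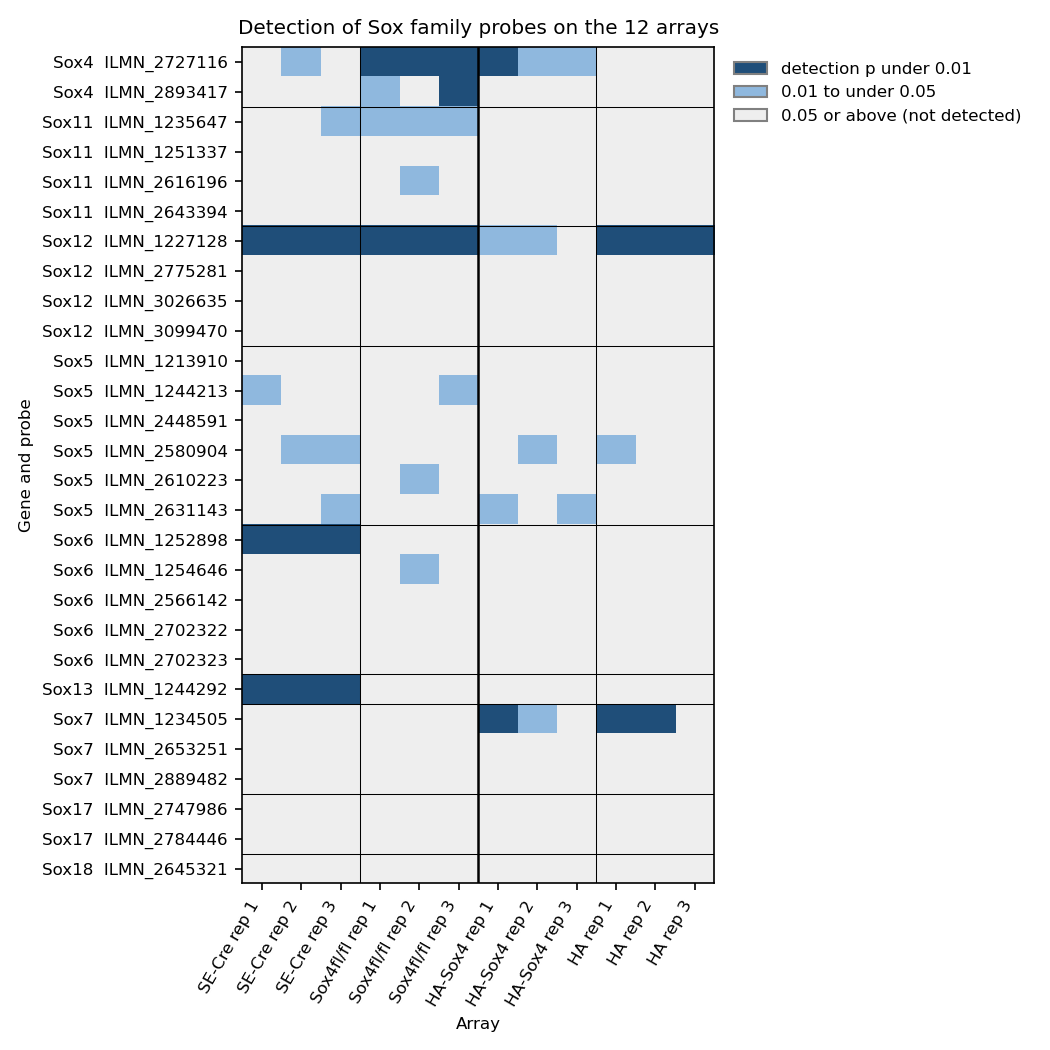
Detection p-values of the 28 Sox probes (rows, by gene) on the 12 arrays (columns, by group), in 3 classes: under 0.01, 0.01 to under 0.05, and 0.05 or above. One Sox12 probe is detected on 11 of 12 arrays, 1 Sox6 probe and the Sox13 probe only on the 3 SE-Cre arrays, and the Sox17 and Sox18 rows are empty.

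Sox4 was the gene deleted in SE-Cre cells, and its brighter probe, ILMN_2727116, checks the labels. The deposited intensities were 89.8, 92.5 and 80.8 on the SE-Cre arrays, against 1877.7, 1690.9 and 1428.8 on the Sox4fl/fl arrays. The SE-Cre arrays lay at or near background, with 1 of 3 detected (detection p of 0.0321), and all 3 Sox4fl/fl arrays lay far above it. The log2 levels were 4.60, 4.65 and 4.27 in SE-Cre cells (mean 4.50 ± 0.21, SD, n = 3) and 10.67, 10.55 and 10.60 in Sox4fl/fl cells (mean 10.61 ± 0.06, SD, n = 3). The log2 difference was -6.10 (SE 0.15, limma adjusted p = 3.64e-10). With 2 of 3 SE-Cre arrays not detected no fold is given, and the size of the difference depends on how background is removed, since it was -4.20 with no background correction (adjusted p = 1.13e-09). These are bulk samples, in which fewer expressing cells and less RNA per cell cannot be told apart.

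In the gain experiment the same probe had intensities of 186.7, 134.7 and 147.4 on the HA-Sox4 arrays, against 123.7, 119.5 and 111.4 on the HA arrays. It was detected on 3 of 3 HA-Sox4 arrays, with 2 of them close to the limit (detection p of 0.0406 and 0.0246), and on no HA array. The log2 levels were 5.96, 5.14 and 5.32 in HA-Sox4 cells (mean 5.47 ± 0.43, SD, n = 3) and averaged 4.68 ± 0.28 (SD, n = 3) in HA cells. No HA array reached the lowest HA-Sox4 array. As the HA group was not detected, the rise is a bound, at least 1.18-fold in HA-Sox4 cells (fitted log2 difference 0.79, SE 0.24, limma adjusted p = 0.0326). The call rested on few arrays: without HA replicate 1 or 3 the adjusted p was 0.0892 or 0.0906. Without HA-Sox4 replicate 1, 2 or 3 the probe was no longer detected on 3 arrays and was not tested.

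The other Sox4 probe, ILMN_2893417, was dim. Its intensities were 84.2, 77.0 and 79.0 on the SE-Cre arrays, none detected, against 96.8, 89.6 and 98.4 with Sox4fl/fl, where 2 arrays detected it. SE-Cre cells had at least 1.11-fold less signal, with no test since too few arrays detected it. On the gain arrays it was not detected, with 133.9, 122.2 and 128.4 in HA-Sox4 cells and 135.9, 106.4 and 131.0 in HA cells, values that overlap. The place of either probe in the Sox4 transcript was not known here, and an introduced Sox4 copy that lacks the probed part would not be measured.

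Sox12, a weaker SoxC activator than Sox4 and widely expressed, fell with SE-Cre and also fell with HA-Sox4. Both values come from 1 of its 4 probes, ILMN_1227128. In the loss experiment its intensities were 101.4, 115.0 and 95.7 on the SE-Cre arrays, against 141.9, 219.4 and 162.6 on the Sox4fl/fl arrays. All 6 arrays detected it and the groups did not overlap, although the Sox4fl/fl arrays differed widely among themselves. The log2 levels were 5.20, 5.60 and 4.99 in SE-Cre cells (mean 5.26 ± 0.31, SD, n = 3) and 5.98, 7.11 and 6.78 in Sox4fl/fl cells (mean 6.62 ± 0.58, SD, n = 3). The log2 difference was -1.36 (SE 0.26, limma adjusted p = 0.00324), a 2.56-fold lower level in SE-Cre cells. The call was lost when every probe on the array was tested (adjusted p = 0.063), the highest value over 21 alternatives, and held under the other 20. Among them was that with no background correction, at -0.66 on the log2 scale (adjusted p = 0.0115).

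In the gain experiment the Sox12 probe had intensities of 155.9, 137.1 and 136.3 on the HA-Sox4 arrays, against 189.8, 137.4 and 170.6 on the HA arrays. Before normalization HA-Sox4 replicate 1 lay above HA replicate 2, and after it the groups did not overlap. The log2 levels were 5.27, 5.22 and 4.97 in HA-Sox4 cells (mean 5.16 ± 0.16, SD, n = 3) and 6.25, 5.77 and 6.22 in HA cells (mean 6.08 ± 0.27, SD, n = 3). Of the HA-Sox4 arrays 2 of 3 detected the probe, and of the HA arrays 3 of 3. The 2 detected HA-Sox4 arrays were close to the limit (detection p of 0.0235 and 0.0299), and replicate 3 had 0.0994. The log2 difference was -0.92 (SE 0.15, limma adjusted p = 0.00311), a 1.90-fold lower level in HA-Sox4 cells. It held under 20 of 20 alternatives (adjusted p between 0.00122 and 0.0381), and was -0.31 on the log2 scale without background correction (adjusted p = 0.00211). Sox12 thus was lower with SE-Cre, where Sox4 was lower, and lower with HA-Sox4, where the Sox4 probe was higher. The other 3 Sox12 probes were detected on no array, with log2 levels between 4.13 and 4.52 on loss and between 4.38 and 4.88 on gain, so the Sox12 differences rest on 1 probe.

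Sox11, the third SoxC gene, known for its role in neural progenitors and normally silent in B cells, was at the edge of detection. Its probe ILMN_1235647 had intensities of 89.2, 89.1 and 89.3 on the SE-Cre arrays, 1 of 3 detected, against 97.5, 93.3 and 88.5 on the Sox4fl/fl arrays, all 3 detected. The log2 levels overlapped, with 4.55 ± 0.08 (SD, n = 3) in SE-Cre cells and 4.64 ± 0.05 (SD, n = 3) in Sox4fl/fl cells. The log2 difference of -0.08 (95% interval -0.38 to 0.21, limma adjusted p = 0.74) did not pass. The interval leaves room for a change of up to 0.38 downward. Of the other 3 Sox11 probes, 2 were detected on no array and 1 on Sox4fl/fl replicate 2 alone. No Sox11 probe was detected in HA-Sox4 or HA cells.

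Sox6 and Sox13, both SoxD genes, each had 1 probe that was detected on all SE-Cre arrays and on no other array. For Sox6 it was 1 of 5 probes, ILMN_1252898, whose intensities were 127.7, 140.1 and 113.2 on the SE-Cre arrays, against 88.9, 84.8 and 85.3 on the Sox4fl/fl arrays. The log2 levels were 6.02, 6.23 and 5.66 in SE-Cre cells (mean 5.97 ± 0.28, SD, n = 3) and 4.34, 4.28 and 4.47 in Sox4fl/fl cells (mean 4.36 ± 0.10, SD, n = 3). All 3 SE-Cre arrays lay clear of background and no Sox4fl/fl array did. With this background correction the probe rose by a bound of at least 2.65-fold (log2 difference as fitted 1.61, SE 0.16, limma adjusted p = 2.69e-05). In the immortalized cells the probe read 4.63, 4.49 and 4.50 in HA-Sox4 cells and 4.38, 4.68 and 4.54 in HA cells, all undetected, and no fold is given.

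The other 4 Sox6 probes did not show this rise. They had log2 levels between 4.16 and 4.62 on the loss arrays, and 3 of them were detected on no loss array, while 1 was detected on Sox4fl/fl replicate 2 alone. The platform annotation ties ILMN_1252898 to a cDNA clone record and not to the RefSeq Sox6 transcript, to which 3 of the other 4 probes are tied. Which part of the Sox6 locus or which transcript the probe reads was not tested.

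Sox13 had 1 probe, ILMN_1244292, with intensities of 117.5, 109.9 and 101.2 on the SE-Cre arrays, against 88.2, 88.0 and 83.4 on the Sox4fl/fl arrays. The log2 levels were 5.75, 5.43 and 5.23 in SE-Cre cells (mean 5.47 ± 0.26, SD, n = 3) and 4.32, 4.37 and 4.38 in Sox4fl/fl cells (mean 4.36 ± 0.03, SD, n = 3). Again all SE-Cre arrays and no Sox4fl/fl array detected it, and Sox13 rose at least 1.87-fold (log2 difference as fitted 1.11, SE 0.16, limma adjusted p = 0.00039). In the gain experiment it read 5.04, 4.67 and 4.77 in HA-Sox4 cells and 4.88, 4.70 and 4.61 in HA cells, not detected on any of the 6 arrays. With no background correction the loss values were, on the log2 scale, 0.61 for Sox6 (adjusted p = 0.000939) and 0.38 for Sox13 (adjusted p = 0.00873), smaller but past the threshold.

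Sox5, the third SoxD gene, was not above background in a whole group with any of its 6 probes. In the loss experiment none was kept for a test, and log2 levels lay between 4.16 and 4.78. In the gain experiment they lay between 4.42 and 5.39. Probe ILMN_2631143 averaged 5.23 ± 0.21 in HA-Sox4 cells, 2 of 3 arrays detected, and 4.68 ± 0.24 in HA cells, none detected (log2 levels, SD, n = 3 each). Every HA-Sox4 array lay above every HA array. With 2 detected arrays it was not kept for the test, and without a detection filter the log2 difference of 0.55 had a limma adjusted p of 0.0541. With 12 arrays fitted together it passed (0.43, adjusted p = 0.0465).

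Among the SoxF genes only Sox7 gave signal, in the immortalized cells and with 1 of its 3 probes. Probe ILMN_1234505 had intensities of 187.5, 142.4 and 140.1 on the HA-Sox4 arrays, against 172.1, 135.9 and 135.5 on the HA arrays, and 2 of 3 arrays of each group detected it. The log2 levels overlapped, at 5.49 ± 0.45 (SD, n = 3) in HA-Sox4 cells and 5.60 ± 0.34 (SD, n = 3) in HA cells. The log2 difference of -0.11 (95% interval -0.71 to 0.50, limma adjusted p = 0.764) did not pass. No loss array detected the probe. The platform annotation ties it to a cDNA clone record, and both other Sox7 probes to the RefSeq transcript. The remaining SoxF probes, 2 for Sox7, 2 for Sox17 and 1 for Sox18, lay at background on every array, with log2 levels between 4.15 and 4.56 on loss and between 4.33 and 5.02 on gain.

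**Figure D2:**
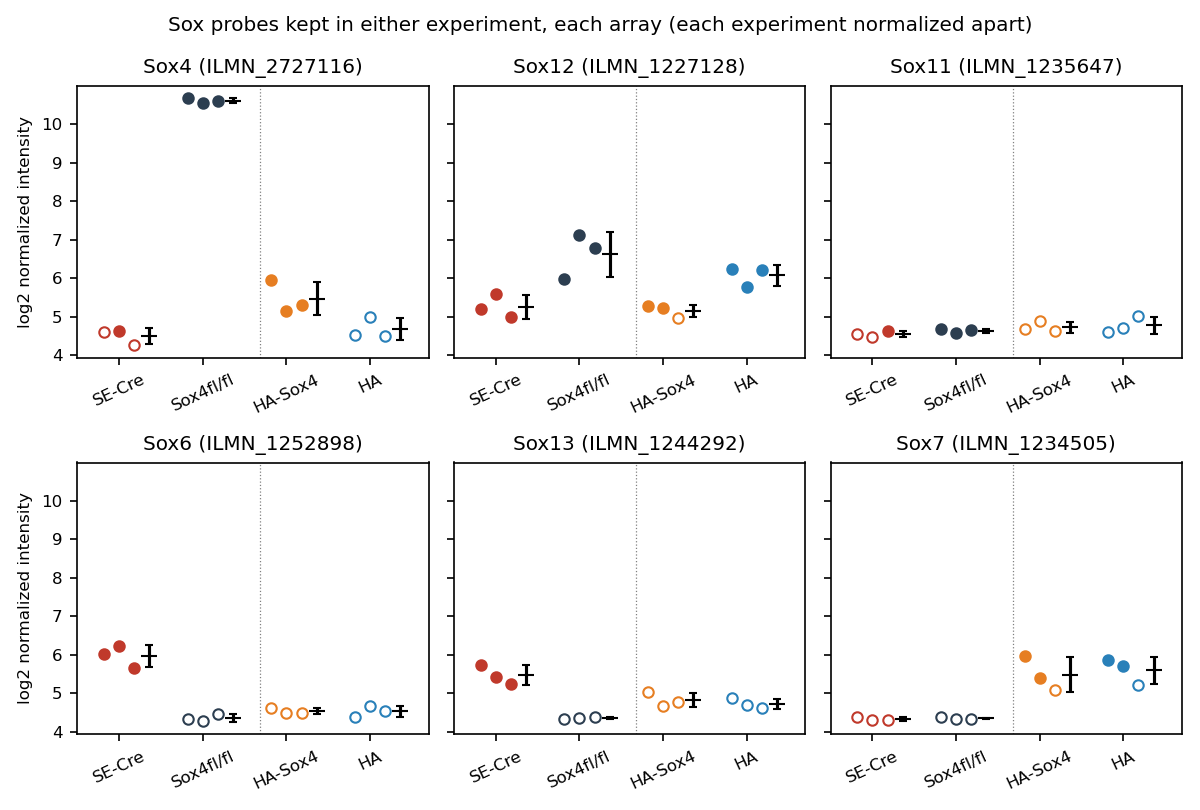
Log2 level (vertical axis) of the 6 Sox probes kept in either experiment on each array, by group (horizontal axis), filled where detected, with mean ± SD (n = 3) to the right and a dotted line between the separately normalized experiments. Sox4 stands near 10.61 in Sox4fl/fl cells alone, Sox12 is lower in SE-Cre and in HA-Sox4 cells than in the group beside it, and Sox6 and Sox13 are above background in SE-Cre cells.

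Across all kept probes, 15.3% of 16454 passed an adjusted p of 0.05 between SE-Cre and Sox4fl/fl cells (6.98% higher and 8.31% lower in SE-Cre cells), and 41.2% of 17504 passed between HA-Sox4 and HA cells (18.6% higher and 22.6% lower in HA-Sox4 cells). Of the 5 Sox probes kept in the loss experiment 2 were higher, 2 lower and 1 did not pass. Of the 3 kept in the gain experiment 1 was higher, 1 lower and 1 did not pass. Scaled to a common median, calls in SE-Cre cells split into 719 higher and 1498 lower, against 1148 and 1368 as reported, and in HA-Sox4 cells into 3196 higher and 2552 lower, against 3261 and 3957. The median log2 difference over all tested probes was 0.02 on loss and -0.07 on gain. The 3 values of each group did not overlap for 4 of the 5 Sox probes, against 32.4% of all kept probes, and for 2 of the 3, against 53.6%. The gain experiment therefore had a high background of changed probes, against which 2 calls among 3 are no result about the family. On loss Sox4 was deleted by design, and Sox6 and Sox13 were kept through the SE-Cre arrays alone. The loss counts are thus no result about the family either.

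**Figure D3:**
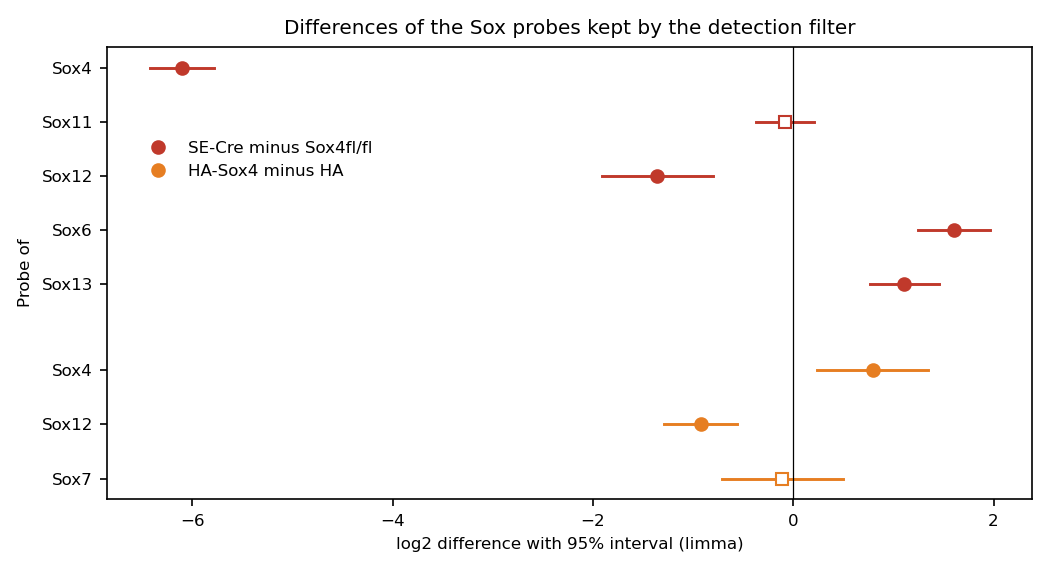
Log2 differences (horizontal axis) with 95% intervals for the Sox probes kept in each experiment, SE-Cre minus Sox4fl/fl above and HA-Sox4 minus HA below. Filled circles passed an adjusted p of 0.05 and open squares did not; Sox12 lies left of 0 in both experiments, and the intervals of Sox11 and Sox7 include 0.

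Whether a Sox probe differed as much with HA-Sox4 over HA as with Sox4fl/fl over SE-Cre was tested on all 12 arrays, normalized together. On that scale the Sox4 log2 difference was 0.64 for HA-Sox4 minus HA and 6.55 for Sox4fl/fl minus SE-Cre, and the difference between these differences was -5.91 (SE 0.28, limma adjusted p = 9.98e-09). Sox12 had a log2 difference of -0.78 for HA-Sox4 minus HA and of 1.45 for Sox4fl/fl minus SE-Cre, so the signs were opposite and the difference between them was -2.23 (SE 0.36, adjusted p = 0.000784). For Sox6 the 2 log2 differences were 0.00 and -2.09 (difference 2.09, SE 0.21, adjusted p = 1.17e-05), and for Sox13 they were 0.08 and -1.56 (difference 1.63, SE 0.20, adjusted p = 8.56e-05). Neither gene was detected in HA-Sox4 or HA cells, so for both the gain side is a reading at background. Sox11, Sox7 and both Sox5 probes that could be tested did not pass (adjusted p of 0.527, 0.794, 0.193 and 0.104). So 4 of 8 Sox probes passed, 2 upward and 2 downward, against 17.6% of all 19663 probes tested this way (8.95% upward and 8.63% downward). Sox4 was changed by design, and its probe may not read an introduced copy. Its value therefore does not measure how far Sox4 was restored. Sox6 and Sox13 met the filter through the SE-Cre arrays alone. Nothing about the family is therefore read from this count.

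**Figure D4:**
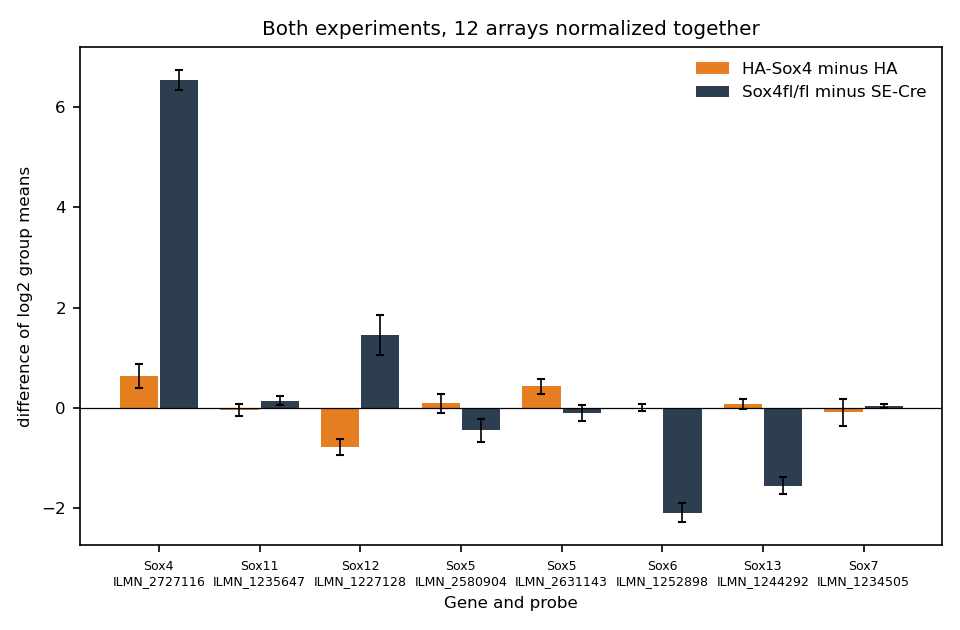
Differences of log2 group means on 12 arrays normalized together, for the 8 Sox probes detected on at least 3 of them, with HA-Sox4 minus HA beside Sox4fl/fl minus SE-Cre. Bars start at 0 and error bars are the standard error of a difference between 2 means of 3 arrays; the Sox12 bars point in opposite directions, and the Sox4 bar is 0.64 for HA-Sox4 minus HA and 6.55 for Sox4fl/fl minus SE-Cre.

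The order of the 4 groups was read on the same scale, as a description, because immortalization, experiment and array set cannot be told apart. Sox4 stood at 11.37 ± 0.06 in Sox4fl/fl, 5.14 ± 0.36 in HA-Sox4, 4.82 ± 0.34 in SE-Cre and 4.51 ± 0.22 in HA cells (SD, n = 3 each). Only the first step was larger than the spread of the arrays, and HA-Sox4 and SE-Cre arrays overlapped, as did SE-Cre and HA arrays. Sox12 stood at 7.34 ± 0.59 in Sox4fl/fl, 5.89 ± 0.37 in SE-Cre, 5.66 ± 0.24 in HA and 4.88 ± 0.13 in HA-Sox4 cells (SD, n = 3 each), where SE-Cre and HA arrays overlapped and the other neighbours did not. Sox6 and Sox13 were highest in SE-Cre cells, at 6.68 ± 0.30 and 6.13 ± 0.29 (SD, n = 3 each), with no overlap with the next group, and the other 3 groups overlapped from neighbour to neighbour. Sox7 was at 5.16 ± 0.37 in HA-Sox4 and 5.24 ± 0.28 in HA cells (SD, n = 3 each), which overlapped, and both lay above the overlapping loss groups.

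The identity of the cells was checked with marker genes. Of 7 progenitor B cell markers 5 were matched on the array, and Cd79b, Vpreb1, Igll1 and Ebf1 were detected on every array, with Pax5 detected in 3 groups and on no Sox4fl/fl array. On loss Pax5 was at least 1.63-fold higher in SE-Cre cells (limma adjusted p = 0.0024), and both kept Ebf1 probes were lower there (log2 differences -0.49 and -0.52, adjusted p = 0.0286 and 0.0479). Cd79b, Vpreb1 and Igll1 did not pass in either experiment. No hepatocyte marker was detected on any array (4 of 4 matched). Beside Sox6, of 5 matched erythroid markers Hba-a1, Alas2 and Car1 were detected on no array. Epor was detected on 2 SE-Cre, 2 Sox4fl/fl and 1 HA array and did not pass on loss (log2 difference 0.05, limma adjusted p = 0.86). Klf1 was detected on 2 Sox4fl/fl, 1 HA-Sox4 and 2 HA arrays and did not pass on gain (-0.57, adjusted p = 0.0785), and the list's summed normalized signal was between 17.1 and 34.5 in SE-Cre and between 21.0 and 34.5 in Sox4fl/fl cells. Beside Sox13, of 4 matched T cell markers Cd3e, Cd3g and Cd3d were detected on no array. Thy1 was detected on all 6 loss arrays and did not pass (log2 difference 0.47, limma adjusted p = 0.0861), and the list's summed signal was between 143 and 205 in SE-Cre cells and between 105 and 134 in Sox4fl/fl cells. Beside Sox7, of 7 endothelial markers Cdh5, Emcn and Plvap were detected on no array, and Kdr and Tek on 1 gain array each. Esam was detected on 1 SE-Cre array, and Pecam1, also a B cell surface gene, on all 12 arrays. Pecam1 moved with Sox4 and Sox12 on loss, with a level of 5.63 in SE-Cre against 8.43 in Sox4fl/fl cells for its brightest probe (log2 difference -2.80, limma adjusted p = 1.95e-07). On gain that probe was higher in HA-Sox4 cells (log2 difference 0.43, limma adjusted p = 0.00913), where Sox12 was lower. The other Pecam1 probes did not pass on gain (limma adjusted p = 0.698 and 0.984). Of 5 matched myeloid markers Lyz2 passed, as higher in SE-Cre cells with both kept probes (log2 difference 1.97 for the first, adjusted p = 2.58e-06 and 0.00068), as Sox6 and Sox13 were and Sox12 was not. It was lower in HA-Sox4 cells with both probes, as Sox12 was. The list's summed signal was between 355 and 463 in SE-Cre against 120 to 128 in Sox4fl/fl cells, and between 119 and 167 in HA-Sox4 against 544 to 601 in HA cells. Csf1r did not pass on loss (log2 difference 0.22, adjusted p = 0.376), Mpo was detected on 1 SE-Cre array, and Elane and Itgam were detected on no array. Kit was the only stem cell marker detected in all groups. Of its 3 probes, 1 passed as higher in SE-Cre cells (log2 difference 0.48, adjusted p = 0.0462), another did not pass there (0.01, adjusted p = 0.978), and the first passed as higher in HA-Sox4 cells (2.30 on that scale, adjusted p = 3.03e-05). The part of these genes in the Sox results was not tested.

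Of 11 other Sox genes, all on the array with 19 probes in all, 3 probes were kept for the test on loss and 2 on gain. Of the kept probes 1 passed in each experiment, against 15.3% of all kept probes on loss and 41.2% on gain. Nothing is read from counts this small. Sox9, a factor of cartilage and epithelial stem cells, was higher in SE-Cre cells with 1 of 2 probes, at 5.35 ± 0.07 against 4.77 ± 0.10 in Sox4fl/fl cells (SD, n = 3 each; log2 difference 0.58, SE 0.14, limma adjusted p = 0.013). Its other probe was not detected. Sox15, a single-member SoxG gene, was detected on 3 of 3 HA arrays and no HA-Sox4 array, and was at least 2.96-fold lower in HA-Sox4 cells (4.72 ± 0.09 against 6.68 ± 0.25 in HA cells, SD, n = 3 each; limma adjusted p = 4.78e-05). In the loss experiment Sox15 did not pass (log2 difference 0.26, adjusted p = 0.265). A list of 7 genes reported as SoxC targets or named in the series title had 6 kept probes on loss and 7 on gain. Its probes of Rag1, Rag2 and Csnk1e come from that title, so their direction is not independent evidence and no count is drawn from them. The 3 probes of Ezh2, the Polycomb methyltransferase gene, were lower in HA-Sox4 cells, against a background of 22.6% lower. On loss 1 of its 2 kept probes was lower in SE-Cre cells (log2 difference -0.49, adjusted p = 0.0366), against 8.31%, and the other did not pass (-0.10, adjusted p = 0.671). Tead2, Tubb3 and Dcx had no probe that could be tested.

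The genes whose levels over the 12 arrays were most like those of a changed Sox probe were found by the root mean square difference after each probe was centred on its mean, among 16359 named probes. For Sox4, whose own levels had a root mean square of 2.85 about their mean, they were Fcer1g (1.17), an Fc receptor signalling chain gene, H1f10 (1.17), a linker histone gene, and Adgre5 (1.28), which encodes the adhesion receptor CD97. Fcer1g stood at 5.52 in SE-Cre against 8.99 in Sox4fl/fl cells, and at 4.50 in HA-Sox4 against 4.63 in HA cells, while H1f10 stood at 4.47 against 9.59 and at 6.60 against 4.60. For Sox12 (0.94) they were 4933439C10Rik (0.337), Pqlc3 (0.391) and Tspan2 (0.402). For Sox6 (0.974) they were the T-box gene Tbx19 (0.125), the proline dehydrogenase gene Prodh (0.166) and the protamine gene Prm1 (0.207), each above its other groups in SE-Cre cells alone (6.78, 6.91 and 6.51). For Sox13 (0.687) they were B3gnt3 (0.166), the collagen gene Col4a2 (0.175) and Nav1 (0.198). These likenesses are descriptions of 12 arrays that fall into 4 groups.

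**Figure D5:**
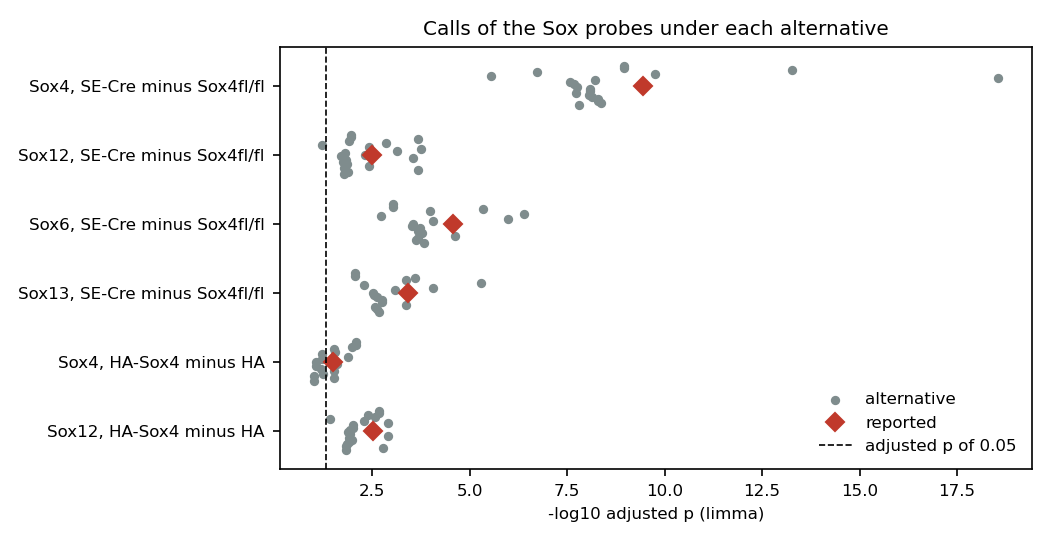
Adjusted p on a -log10 axis for the 6 calls of Sox probes, as reported (diamonds) and under each alternative in processing (points), with the threshold of 0.05 dashed. The points of Sox4 in HA-Sox4 cells lie on both sides of the threshold, 1 point of Sox12 in SE-Cre cells lies left of it, and those of the other 4 calls lie right of it.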

How the data were processed

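Total RNA of progenitor B cells, over 95% pure per the labels' protocols, was read on single-colour Illumina arrays. The deposited non-normalized table holds, per the file headers, an intensity and a detection p-value for each probe and array. A second deposited table of intensities matched quantile normalization of the first within each experiment (99.97% of loss and 99.96% of gain values to within 0.01). R 3.0.1 is named in the submitters' processing notes; the scanner software is not given in the sources used here. The platform annotation gave 34885 probes 1 gene symbol, 18 several and 10378 none.

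Normalization of each experiment apart used neqc (limma 3.58.1, R 4.3.3), which inferred the negative controls from detection p-values, added an offset of 16, normalized by quantiles and took log2. Probes detected at p under 0.05 on at least 3 of 6 arrays (3 of 12 for the test between experiments) entered lmFit and eBayes. Benjamini-Hochberg adjustment ran over all of these probes, with a threshold of 0.05. Where no array of a group detected a probe, the fold is a bound: on each array of that group the higher of the probe's level and the lowest level of any detected probe was used. Such a bound is on the ratio of the means and takes in neither the spread of the arrays nor other ways of removing background. The number of arrays limits the precision. The fits were tested on simulated intensities. Changes were planted only in probes detected on every array of an experiment, so probes undetected in a whole group were not covered. The members and lists were chosen with earlier results of these data known. Named were every member probe, other Sox genes that passed, reported SoxC targets, and the 3 genes most like each changed probe. Alternatives were the authors' processed values, no background correction, scaling to a common median, normalizing or fitting 12 arrays together, no detection filter or detection on every array, a trended robust variance, the replicate number as a block, and each array left out.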

Additional observations from a re-analysis of the deposited data

Results flagged for a closer look

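Between the 2 experiments 4 Sox probes differed by a test of the difference itself, (HA-Sox4 minus HA) minus (Sox4fl/fl minus SE-Cre) on the log2 scale. The value was -5.91 for Sox4, -2.23 for Sox12, 2.09 for Sox6 and 1.63 for Sox13 (limma adjusted p = 9.98e-09, 0.000784, 1.17e-05 and 8.56e-05). Under 27 alternatives for Sox4 and Sox12 and 24 for Sox6 and Sox13 each kept its sign and passed, where it could be tested. Sox6 and Sox13 met the detection filter through the SE-Cre arrays alone. With an SE-Cre array left out, the filter as reported removed both, so their results were not tested there. Sox12 alone was detected in each of the 4 groups, on 11 of 12 arrays. Its HA-Sox4 side was close to the detection limit (detection p of 0.0235, 0.0299 and 0.0994). For Sox6 and Sox13 neither HA-Sox4 nor HA cells gave a detected value, and for Sox4 the HA cells did not. The Sox6 and Sox13 values therefore restate the difference between SE-Cre and Sox4fl/fl cells and are not separate evidence.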

How the results depend on the processing

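Each of the 6 Sox calls kept its sign under every alternative that could be run. The Sox4, Sox6 and Sox13 calls in SE-Cre cells and the Sox12 call in HA-Sox4 cells also kept their side of the threshold wherever they were tested. The Sox4 call in HA-Sox4 cells passed under 9 of 17 alternatives (adjusted p between 0.00852 and 0.101) and Sox12 in SE-Cre cells under 20 of 21. Of the 4 Sox calls on loss, 1 was left with detection required on every array, and the count was between 2 and 4 with an array left out. Without an SE-Cre array only 2 arrays detect Sox6 and Sox13, so the filter removed them. With a limit of 2 arrays, an alternative chosen after seeing the data, all 4 calls were there without any single array. Of the 2 Sox calls on gain, 1 was left with no detection filter and 0 with detection on every array, where neither probe can enter, while the count of Sox calls was between 1 and 2 with an array left out, between 1 and 3 with the limit of 2 arrays and 3 with 12 arrays fitted together. There Sox5 ILMN_2631143 passed with 12 arrays fitted together (adjusted p = 0.0465) and, with the limit of 2 arrays, without HA-Sox4 replicate 2 (0.0245) or HA replicate 1 (0.0211). Between experiments the count, 4 as reported, was between 2 and 4 with an array out, and between 4 and 5 with the limit of 2 arrays. Added calls were Sox5 ILMN_2580904 without SE-Cre replicate 1 (adjusted p = 0.0381, and 0.0346 with the limit of 3 arrays) and Sox4 ILMN_2893417 without Sox4fl/fl replicate 2 (0.0143). Over all probes, 2516 calls on loss became 3804 when 12 arrays were fitted together and between 1536 and 1996 with an array left out (1590, 1536 and 1612 without Sox4fl/fl replicates 1, 2 and 3). The gain count of 7218 became between 5468 and 6202, and that between experiments, 3456, between 2604 and 3457. With the limit of 2 arrays these ranges were 1707 to 2013, 5909 to 6084 and 2698 to 3376. Scaling to a common median moved the share of higher calls to 32.4% on loss (719 higher, 1498 lower), against 45.6% as reported, and to 55.6% on gain (3196 higher, 2552 lower), against 45.2%, and the Sox calls kept their directions.

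Same-numbered arrays did not deviate together (correlations between 0.002 and 0.041 on loss and between -0.023 and -0.005 on gain). The labels do not say whether the numbers pair the samples, and low correlations cannot exclude that they do. With the replicate number as a replicate block, 2387 probes passed on loss, 6448 on gain and 2936 between experiments, and of the Sox calls 1 was left on gain, the Sox4 call there having an adjusted p of 0.0614. Signal over background limits the dim probes: most Sox probes cannot be told from background here, which does not show that the genes are silent.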
